A study of Mus musculus with 5 samples.

Results

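The data described are the signals of 10 mouse apolipoprotein genes, Apoa1, Apoa2, Apoa4, Apoa5, Apob, Apoc1, Apoc3, Apoe, Apoh and Apom, on 5 Agilent oligonucleotide arrays. The genes were chosen by name, and their probes are those whose transcript record carries that gene symbol. They had 16 probes, out of 26888 probes that could be given 1 gene name, and they are 10 of the 18300 genes named in that way. Signal clearly over the local background was found for 6 of the 10 genes on at least 1 array, and for 15428 of the 18300 named genes.

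The arrays came from a fusion of mouse embryonic stem (ES) cells with hepatoma cells, 1 array per condition. ES was the line E14, and Hepa1-6 is a line from a mouse liver tumour. EHe, the ES-Hepa hybrid, was made by fusing the E14 and Hepa1-6 lines and was profiled undifferentiated, and EHeD7 and EHeD14 were EHe cells differentiated for 7 and 14 days. In the study's methods the ES parent carried a red fluorescent protein with hygromycin resistance and the hepatoma parent a green fluorescent protein with neomycin resistance, and hybrid colonies were picked after selection with both drugs, so EHe may be 1 clone. By the labels ES and EHe were kept in medium with leukemia inhibitory factor, whereas a high-glucose medium containing calf serum was used for the differentiated hybrids and Hepa1-6, so that medium and state changed together. The Hepa1-6 array lay on a slide of its own and the other 4 arrays shared a slide, so the slide and the hepatoma line cannot be told apart.

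Apolipoproteins are the protein part of the particles that carry cholesterol and triglyceride through the blood. Apob is the large structural protein on which very low density lipoproteins and chylomicrons are built, Apoa1 and Apoa2 are the main proteins of high density lipoprotein, and the smaller C and E apolipoproteins move between particles and set how lipases and receptors act on them. Hepatocytes and enterocytes are the main producers in the adult, the visceral endoderm of the yolk sac makes several of them in the embryo, and Apoe is also made by macrophages and many other cells. Their RNA is often read as a mark of hepatocyte character, although these other cells make it too.

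Signals are given as relative signal, the processed signal of a probe divided by the 75th percentile of the gene probes on its array, and a fold is the ratio of 2 relative signals of the same probe. Levels of different probes cannot be set against each other. Sums over a list of markers are therefore descriptions only, since they follow the probes that read strongest. A probe that the scanner software did not call well above background has only an upper bound. That bound is the detection limit or, where higher, the probe's own reading. The detection limit is the lowest signal called well above background on that array. This detection limit stood at a relative signal of 0.0233 in ES and 0.0349 in EHe, 0.0140 in EHeD7 and 0.0213 in EHeD14, and 0.0253 in Hepa1-6. Folds against an upper bound are written as at least N-fold. With 1 array per condition there is no replicate error and no test, and the array number limits the precision. The only error at hand is the spot noise of 245 probes printed 10 times, with a median SD of 0.0920 to 0.139 on the log2 scale across the arrays. Neighbouring values are called distinct here when they lie more than 2 times the spot SD of their difference apart, which says nothing about the spread between cultures.

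The sequences just upstream of the genes that the results turn on are shown first, so that Apob, Apoa2 and Apoe, which were higher in Hepa1-6 than in ES, can be read beside Apom, which was lower, and Apoa1, which was not well above background. They were taken from RefSeq, assembly GRCm38.p6, which had 12 annotated starts for 8 of the 10 genes, and each is the 250 bases before a start, written 5′ to 3′ on the gene's strand. Capitals mark matches, on either strand, to TATAAA (the TATA box), CAAAGTNCA (an HNF4 core), TGTTTAC or TGTTTGC (forkhead, the family of Foxa1 and Foxa2), TTGCNNAA (C/EBP) and an HNF1 motif. These are letter matches only and not binding sites.
Apob, chr12:7977427-7977676, plus strand: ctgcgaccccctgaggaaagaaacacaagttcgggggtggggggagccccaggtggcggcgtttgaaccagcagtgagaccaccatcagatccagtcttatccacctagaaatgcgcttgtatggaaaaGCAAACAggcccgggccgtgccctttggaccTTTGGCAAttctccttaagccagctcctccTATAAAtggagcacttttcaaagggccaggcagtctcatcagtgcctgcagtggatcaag
Apoa2, first start, chr1:171221314-171221563, plus strand: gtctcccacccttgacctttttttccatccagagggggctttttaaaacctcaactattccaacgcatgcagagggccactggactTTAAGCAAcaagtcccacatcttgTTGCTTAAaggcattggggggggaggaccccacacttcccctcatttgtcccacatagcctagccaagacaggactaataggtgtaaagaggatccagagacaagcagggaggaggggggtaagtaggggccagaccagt
Apoa2, second start, chr1:171224804-171225053, plus strand: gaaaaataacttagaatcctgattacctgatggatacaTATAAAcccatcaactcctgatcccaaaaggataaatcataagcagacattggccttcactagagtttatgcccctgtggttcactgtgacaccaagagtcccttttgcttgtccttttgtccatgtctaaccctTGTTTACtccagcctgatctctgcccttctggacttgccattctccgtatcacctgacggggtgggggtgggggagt
Apoe, start farthest upstream, chr7:19699189-19699438, minus strand: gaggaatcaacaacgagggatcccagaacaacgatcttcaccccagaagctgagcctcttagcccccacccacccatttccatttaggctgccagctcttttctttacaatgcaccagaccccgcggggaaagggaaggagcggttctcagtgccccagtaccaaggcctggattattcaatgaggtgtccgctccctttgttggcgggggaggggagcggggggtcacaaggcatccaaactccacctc
Apom, chr17:35131802-35132051, minus strand: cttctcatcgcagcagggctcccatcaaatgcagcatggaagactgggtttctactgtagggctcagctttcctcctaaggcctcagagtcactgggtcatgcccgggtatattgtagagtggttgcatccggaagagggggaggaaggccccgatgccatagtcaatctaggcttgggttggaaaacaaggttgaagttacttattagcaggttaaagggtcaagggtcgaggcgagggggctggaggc
Apoa1, chr9:46228380-46228629, plus strand: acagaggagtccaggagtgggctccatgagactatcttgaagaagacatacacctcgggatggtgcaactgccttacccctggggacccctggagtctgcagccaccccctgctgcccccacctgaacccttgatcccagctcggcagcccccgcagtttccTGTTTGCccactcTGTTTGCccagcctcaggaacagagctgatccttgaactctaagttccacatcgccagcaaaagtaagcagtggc

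The Apob window held a forkhead match at 121 bases, a C/EBP match at 90 bases and a TATA match at 60 bases before the start. The 2 windows of Apoa2 differed, with a pair of C/EBP matches at 164 and 140 bases in the first and a TATA match at 212 bases and a forkhead match at 77 bases in the second. The Apoa1 window held a pair of forkhead matches at 88 and 75 bases, and the windows of Apom and of the Apoe start shown held none of the motifs searched. Among the windows not printed, the HNF4 core stood in that of Apoa4 at 182 bases, TGTTTAC in that of Apoh at 71 bases, TGTTTGC with TATAAA in both windows of Apoa5, and 2 overlapping TATAAA matches in another Apoe window. Of all 32851 windows of this length in RefSeq, 12.4% held TATAAA, 1.19% the HNF4 core, 3.17% TGTTTAC, 4.30% TGTTTGC, 9.56% TTGCNNAA and 0.371% the HNF1 motif, which was in no window of the 8 genes.

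Across the 5 arrays the 10 genes fell into 3 kinds. Apoe, Apoc1, Apom and Apoa5 were well above background on all 5 arrays, Apob on 3 arrays and Apoa2 on the Hepa1-6 array alone, while Apoa1, Apoa4, Apoc3 and Apoh were well above background on none. Hepa1-6 exceeded ES more than 3-fold in Apob, Apoe and Apoa2, and lay more than 3-fold under it in Apom. That makes 3 of the 6 measured members higher and 1 lower, where 13.1% of all 15428 measured genes were higher by more than 3-fold and 21% were lower by more than 3-fold in the same pair of arrays. Apoa2 entered the measured genes only through the Hepa1-6 array, so its direction in every comparison with Hepa1-6 was set by the filter.

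**Figure D1:**
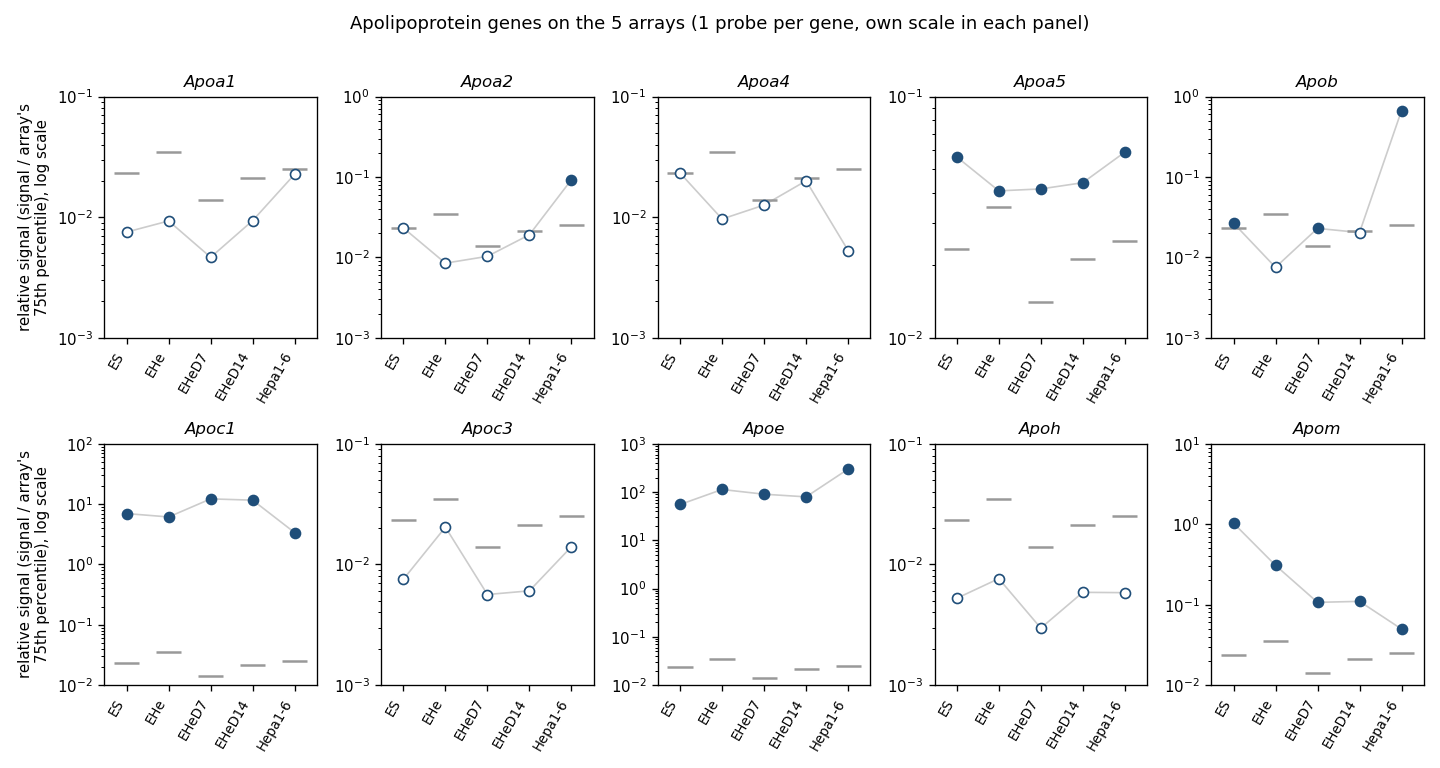
Relative signal (processed signal over the array's 75th percentile, log scale, own range in each panel) of the chosen probe of each gene on the 5 arrays. Filled points were well above background, open points were not, and the grey bar is the array's detection limit. Apob and Apoa2 stand clear of the bar in Hepa1-6, at 0.672 and 0.0926, Apom falls from 1.03 in ES to 0.0498 in Hepa1-6, and Apoa1, Apoa4, Apoc3 and Apoh have no filled point.

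Apob, the backbone of the particles that liver secretes, had a relative signal of 0.0267 in ES and 0.00752 in EHe, 0.0230 in EHeD7 and 0.0204 in EHeD14, and 0.672 in Hepa1-6. The EHe and EHeD14 values were not well above background, and those of ES and EHeD7 were 1.14 and 1.64 times the detection limit. Apob was thus clearly measured in the hepatoma line alone, with the other 4 arrays at or near the limit. Hepa1-6 stood 25.2-fold above ES (log2 difference 4.65), at least 19.2-fold above EHe and at least 31.6-fold above EHeD14. The size depended on the processing: the log2 difference between Hepa1-6 and ES was 2.82 after normexp, a model-based background correction, and 2.34 for the mean of the Apob probes, and with normexp EHe and EHeD14 differed from Hepa1-6 by -3.21 and -2.86, less than the bounds above, and for the mean of the probes by -1.76 and -2.47. The ES, EHeD7 and EHeD14 values did not differ beyond spot noise, and no fold could be given between EHe and ES, because the ES value lay under the EHe limit.

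The array carried 5 probes for Apob, and the values above are those of the probe measured on most arrays, A_52_P441070. Of the other 4 probes, A_51_P470542 read 0.549 in Hepa1-6, at least 23.5-fold over ES, and was also well above background in EHeD7, at 0.0198. A_51_P413088 read 0.0826 in Hepa1-6, at least 3.16-fold over ES, and A_51_P436690 read 0.0323, at least 1.38-fold over ES. The fifth, A_51_P380650, was at 0.0235 in Hepa1-6, under the limit. All 5 probes had their highest relative signal in Hepa1-6, but the fold over ES that they allowed ranged from 25.2 down to none. The position of each probe along the transcript was not used here.

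**Figure D2:**
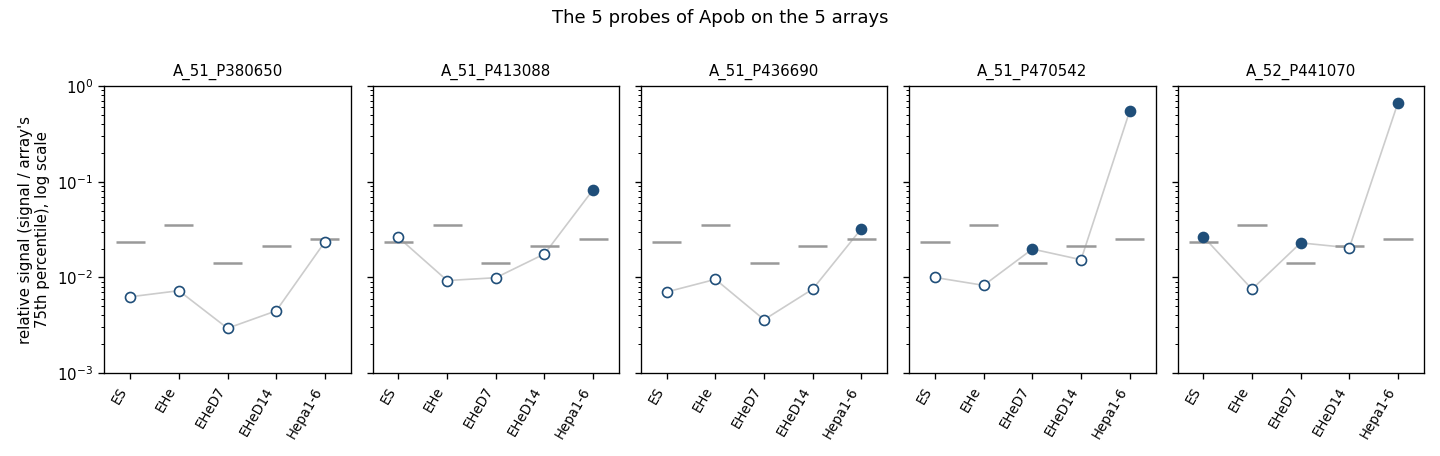
Relative signal (log scale) of the 5 Apob probes on the 5 arrays, with filled points well above background, open points not, and grey bars at the detection limits. In Hepa1-6 4 of the 5 probes are filled, from 0.0323 to 0.672, and A_51_P380650 is an open point at 0.0235.

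Apoa2, a protein of high density lipoprotein, read 0.0232 in ES and 0.00847 in EHe, 0.0103 in EHeD7 and 0.0191 in EHeD14, and 0.0926 in Hepa1-6. Only the Hepa1-6 value was well above background, at 3.66 times the limit. Hepa1-6 was at least 3.96-fold over ES, at least 2.65-fold over EHe and at least 4.35-fold over EHeD14. With normexp the difference between Hepa1-6 and ES shrank to 0.50 on the log2 scale and that between EHeD14 and Hepa1-6 to -0.84, and Apoa2 was no longer past 3-fold in either pair.

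Apoe, the ligand through which remnant particles bind their receptors, was measured with 10 spots per array. Its relative signal was 55.4 in ES and 114 in EHe, 90.6 in EHeD7 and 79.8 in EHeD14, and 301 in Hepa1-6. Single spots ran from 51.3 to 58.3 in ES and from 107 to 124 in EHe, from 82.9 to 95.6 in EHeD7 and from 76.7 to 83.7 in EHeD14, and from 277 to 354 in Hepa1-6. The spots of EHeD7 and EHeD14 overlapped, and those of no other pair of arrays did. Hepa1-6 exceeded ES 5.43-fold in Apoe (log2 difference 2.44), and EHe exceeded ES 2.05-fold. EHe stood 2.65-fold below Hepa1-6, so its level lay between those of its parents. On differentiation it read 1.25-fold lower at 7 days and 1.42-fold lower at 14 days than in EHe, which left EHeD14 3.77-fold below Hepa1-6. These sizes depended on the scaling. When each array was centred on its median, EHe minus Hepa1-6 moved from -1.41 to -2.08 on the log2 scale, past 3-fold. EHeD14 minus Hepa1-6 moved from -1.91 to -2.74. No Apoe spot was saturated.

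Since macrophages also make Apoe, the macrophage list was read beside it. Of its 7 genes on the array, Ptprc, Adgre1, Lyz2 and Tyrobp were not well above background on any array, and the summed relative signal of the list ran from 0.279 in ES to 5.32 in Hepa1-6, of which Cd14 made 5.24. Csf1r was well above background at 0.0428 in Hepa1-6 and on all other arrays but EHe, and Itgam at 0.0442 in ES and 0.0559 in EHe. The part of such cells in the Apoe values was not tested.

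Apoc1, an inhibitor of receptor uptake that sits next to Apoe on chromosome 7, read 6.99 in ES and 6.14 in EHe, 12.3 in EHeD7 and 11.7 in EHeD14, and 3.37 in Hepa1-6. The 2 differentiated hybrids were highest, ES and EHe followed, and Hepa1-6 was lowest. The pairs EHeD7 with EHeD14 and ES with EHe did not differ beyond spot noise. Apoc1 was 1.99-fold higher at 7 days and 1.90-fold higher at 14 days than in EHe. Hepa1-6 was 2.07-fold below ES and 3.46-fold below EHeD14. That last difference was past 3-fold, but when each array was centred on its median it was 0.96 on the log2 scale and the call was lost. Between Hepa1-6 and ES the median of all measured genes lay at -0.49 on the log2 scale, and at 0.29 after centring on the median, against -1.05 and -0.27 for Apoc1.

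In the mouse annotation Apoc1 and Apoe are neighbours in the order Apoc2, Apoc4, Apoc1, Apoe and Tomm40. Apoc4, the small apolipoprotein gene beside Apoc1, read 8.03 in Hepa1-6 and was not well above background on the other 4 arrays, so that Hepa1-6 stood at least 304-fold over ES and at least 230-fold over EHe. Of the 3 genes of this cluster on the array, Apoc4 and Apoe were thus highest in Hepa1-6 and Apoc1 was lowest there. Apoc2, which activates lipoprotein lipase, was not among the named probes.

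Apom, a lipocalin of high density lipoprotein that carries sphingosine-1-phosphate, was lower in Hepa1-6 than in ES, where Apob and Apoe were higher. It read 1.03 in ES and 0.308 in EHe, 0.107 in EHeD7 and 0.110 in EHeD14, and 0.0498 in Hepa1-6. ES was highest and Hepa1-6 lowest, and of the neighbours in that order the 2 differentiated hybrids alone did not differ beyond spot noise. Apom was 20.8-fold lower in Hepa1-6 than in ES (log2 difference -4.38), and EHe lay between the parents, 3.35-fold below ES and 6.20-fold above Hepa1-6. Between Hepa1-6 and ES the log2 difference was -3.31 with normexp and -3.59 with centring on the median, and between EHe and Hepa1-6 it fell from 2.63 to 1.62 with normexp. From EHe it was 2.89-fold lower at 7 days and 2.81-fold lower at 14 days. EHeD14 was 2.21-fold above Hepa1-6, where the signal was 1.97 times the detection limit, and that log2 difference of 1.14 shrank to 0.33 under quantile normalization and 0.32 under centring on the median.

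The remaining 5 genes gave little or no signal. Apoa5, which promotes the breakdown of triglyceride, read 0.0562 in ES and 0.0407 in EHe, 0.0414 in EHeD7 and 0.0440 in EHeD14, and 0.0589 in Hepa1-6, and no neighbours in that order differed beyond spot noise. This depended on the scaling, since the difference between EHeD14 and Hepa1-6, -0.42 on the log2 scale, was -1.24 under quantile normalization and -1.25 under centring on the median. These values were 1.16 to 2.96 times the detection limits, and the second Apoa5 probe was not well above background on any array. Apoa1, the main protein of high density lipoprotein, read 0.00753 in ES and 0.00931 in EHe, 0.00465 in EHeD7 and 0.00938 in EHeD14, and 0.0227 in Hepa1-6. Its probe was printed 10 times, and 1 spot, on the Hepa1-6 array, was called well above background.

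Apoa4, made mainly by the intestine, read between 0.00529 in Hepa1-6 and 0.0232 in ES. Apoc3, an inhibitor of lipoprotein lipase, had its higher probe between 0.00563 in EHeD7 and 0.0204 in EHe, and Apoh, a phospholipid-binding plasma protein, read between 0.00297 in EHeD7 and 0.00763 in EHe. None of these values was above its array's limit, so a difference was not detectable at this signal, and nothing follows on whether the RNA was absent. Apoa1, Apoc3, Apoa4 and Apoa5 lie next to each other on chromosome 9 in that order, and Apoa5 was the only gene of that cluster with a probe well above background.

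**Figure D3:**
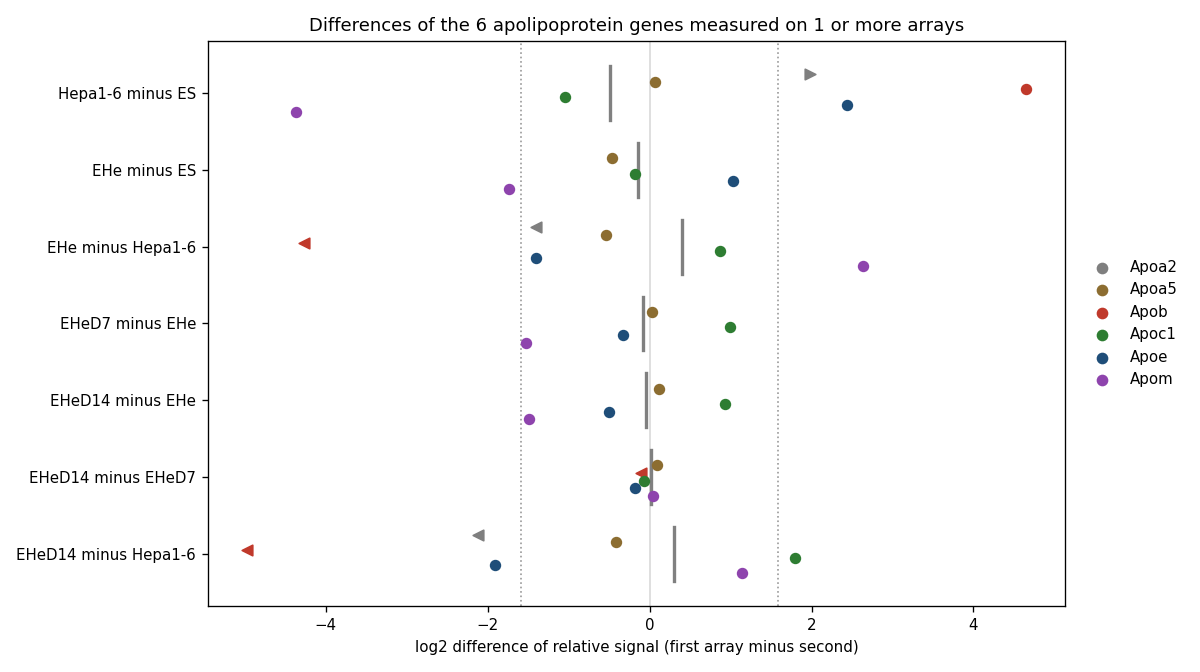
Log2 difference of relative signal (first array minus second) of the 6 genes measured on at least 1 array, for 7 comparisons. Triangles are bounds that point to the side where the difference could be larger, grey bars are the medians of all measured genes, and dotted lines mark 3-fold. Apob lies farthest right at 4.65 for Hepa1-6 minus ES, Apom farthest left there at -4.38, and no point passes 3-fold in the comparisons of differentiated with undifferentiated hybrids.

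The first question of the design is what fusion with ES cells did to the hepatoma's profile. Between EHe and ES, Apom alone was past 3-fold, 1 of the 6 measured members, of which 4 had a usable fold in that pair. Of all measured genes, with or without a usable fold, 5.57% were more than 3-fold apart. Between EHe and Hepa1-6, Apob was over 3-fold lower in EHe, where 12.8% of genes were, and Apom over 3-fold higher, where 17.9% were. Apob and Apoa2 were not well above background in EHe, whose detection limit, 0.0349, was the highest of the 5 arrays. For Apoa2, measured only through Hepa1-6, this was set by the filter, and its fold of at least 2.65 did not pass 3-fold. Apoe and Apom read between the parents.

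The second question is what changed when the hybrid left the stem cell state. A fold could be given for 4 members, Apoa5, Apoc1, Apoe and Apom, and none of these was more than 3-fold apart between EHeD7 and EHe, where 10.8% of measured genes were, or between EHeD14 and EHe, where 11.2% were. Both shares are of all measured genes, with or without a usable fold. Apob had no usable fold in either pair. Its EHe value was not well above background, its EHeD7 value lay under the EHe limit, and its EHeD14 value was not well above background either. Of all genes, 6.78% lay more than 3-fold above and 4.39% more than 3-fold below EHe in EHeD14. Among members well above background on both arrays, the largest differences were those of Apom, which under quantile normalization and under centring on the median passed 3-fold at both days, and of Apoc1. EHeD14 and EHeD7 differed little, with no measured member and 1.13% of genes more than 3-fold apart, and with Apoe, Apoc1, Apom and Apoa5 between 1.03-fold and 1.13-fold apart. Against Hepa1-6, EHeD14 was over 3-fold lower in Apob, Apoa2 and Apoe, 3 of the 6 measured members where 12.2% of genes were lower, with Apoa2 counted there only because of the filter, and over 3-fold higher in Apoc1, where 17.6% were higher. Every comparison with EHe uses the same EHe array, and every comparison with Hepa1-6 the same Hepa1-6 array, so these counts are not independent.

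The medians over the 6 measured members were 1.03 for Hepa1-6 minus ES and 0.52 for EHeD14 minus EHe, beside -0.49 and -0.05 for all measured genes. The 6 values behind each median run both ways. The middle values behind the first were those of Apoa5 at 0.07 and Apoa2 at 1.99. Apoa2 was well above background in Hepa1-6 alone, so the filter set its direction, and with normexp it was 0.50. The first median is therefore no evidence about the members as a set. The second includes values of Apob and Apoa2 that were not well above background on either array.

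Genes that act on the same particles were read from 4 fixed lists. The counts below stand beside these shares of all measured genes past 3-fold. In Hepa1-6 against ES 13.1% were higher and 21% lower, and in EHeD14 against EHe 6.78% were higher and 4.39% lower. Of 12 measured genes among 14 other apolipoproteins and particle proteins on the array, 2 lay more than 3-fold above ES in Hepa1-6. Another 3 lay more than 3-fold below it, and both counts were near the shares of all genes. The higher genes were Apoc4 and Clu, also called apolipoprotein J, and the lower ones were Apod, Apof and Apol6. Apoc4 was well above background in Hepa1-6 alone, so the filter set its direction. Clu read 1.77 in ES and 1.02 in EHe, 12.6 in EHeD7 and 13.3 in EHeD14, and 193 in Hepa1-6. Hepa1-6 stood 109-fold above ES in Clu, which was 13.1-fold higher in EHeD14 than in EHe, the only gene of this list over 3-fold higher in the latter pair. Apod ran the other way, from 0.413 in ES and 0.345 in EHe to 0.0241 in EHeD7, and was not well above background in EHeD14 or Hepa1-6, with EHeD14 at least 12.7-fold below EHe. Apof was likewise lower in EHeD14 than in EHe, by at least 3.01-fold.

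Among genes of lipoprotein assembly and remodelling, Hepa1-6 lay more than 3-fold above ES in 6 of 19 measured genes and more than 3-fold below it in 1. Mttp, the transfer protein that loads lipid onto Apob, read 0.725 in Hepa1-6, 0.104 in EHeD7 and 0.0970 in EHeD14, and was not well above background in ES or EHe. Hepa1-6 was at least 23.6-fold over ES in Mttp, and EHeD7 and EHeD14 were at least 2.28-fold and at least 2.12-fold over EHe. Mttp was therefore measured in both differentiated hybrids, where Apob was at or near the limit. The other higher genes were Angptl8, a secreted regulator of lipoprotein lipase, at 111-fold, Bmp1, a protease of procollagen and other secreted proteins, at 5.87-fold, Apobec1, the enzyme that edits Apob RNA, at 4.15-fold, Abca1, the exporter that loads Apoa1 with cholesterol, at 4.02-fold, and Lcat, which esterifies that cholesterol, at 3.08-fold. Pltp, the phospholipid transfer protein, was at least 24.5-fold lower in Hepa1-6.

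Of the same 19 genes, 1 lay more than 3-fold above and 1 more than 3-fold below EHe in EHeD14. Bmp1 was 7.03-fold higher. Abca1 fell from 0.566 in EHe to 0.0927 in EHeD7 and 0.0308 in EHeD14, 18.4-fold below EHe, while it read 1.27 in Hepa1-6.

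Among receptors and uptake genes, Hepa1-6 lay more than 3-fold above ES in 4 of 14 measured genes and more than 3-fold below it in 3. Vldlr, which takes up particles carrying Apoe, read 0.0828 in ES and 0.623 in EHe, 0.695 in EHeD7 and 0.433 in EHeD14, and 5.48 in Hepa1-6. It was 7.52-fold higher in EHe than in ES, and below Hepa1-6 in each hybrid. The other higher genes were Lrp8, a receptor for Apoe, Lsr and Stab1, and the lower ones were Lrp2, Amn and Lrpap1.

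In EHeD14 4 of the 14 genes were over 3-fold higher than in EHe and none was over 3-fold lower. They were Cubn at 18.1-fold and Amn at 5.92-fold, the 2 parts of the receptor that takes up Apoa1, with Lrp2 at 3.31-fold, the large endocytic receptor that works with them, and Lrpap1 at 3.32-fold, the chaperone of that family. Cubn and Amn also mark visceral endoderm. Of 13 measured genes on the extraembryonic endoderm list, 8 were over 3-fold higher in EHeD14 than in EHe, and none over 3-fold lower. Of all measured genes 6.78% were higher in that pair. In EHe, however, 6 of the 13 were over 3-fold lower than in ES and none over 3-fold higher, where 3.21% of all measured genes were lower. All 6 are among the 8, so their rise started from a level under that of ES. These 8 include Cubn, Amn, Foxa2 and Gata6, which also stand in the other lists. Of the same list, Afp and Ttr were not well above background in EHeD14, and Sox7 was 2.54-fold lower than in EHe. Lrp2, Cubn, Amn and Lrpap1 had their lowest readings in different arrays: EHe for Cubn, at 0.0659, and Hepa1-6 for Lrp2, Amn and Lrpap1.

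Of 28 measured regulators known to act on apolipoprotein genes, 9 lay more than 3-fold above ES in Hepa1-6 and 2 more than 3-fold below it. Foxa2 read 0.139 in ES, 0.0422 in EHeD7, 0.185 in EHeD14 and 10.4 in Hepa1-6, and was not well above background in EHe. Foxa3 read 0.114 in EHeD7, 0.134 in EHeD14 and 2.30 in Hepa1-6 and was not well above background in ES or EHe. Foxa1 was well above background in Hepa1-6 alone, at 0.0354. The forkhead genes other than Foxa1 were thus measured in both differentiated hybrids, at readings well under those of Hepa1-6. Hnf4a, the nuclear receptor that drives many apolipoprotein genes in liver, read 0.0760 in ES, 0.0513 in EHeD7, 0.0483 in EHeD14 and 0.155 in Hepa1-6 and was not well above background in EHe. Hepa1-6 was 2.04-fold over ES in Hnf4a. Besides Foxa2 and Foxa3, the genes over 3-fold higher there were Nr2f2, Nr1h4, Rora, Onecut1, Cebpb, Thrb and Nr1h3. Of these, Nr2f2 and Onecut1 were well above background in Hepa1-6 alone, so the filter set their direction. Foxa1 and Prox1 also entered the 28 only through Hepa1-6, and neither was past 3-fold.

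In EHeD14 6 of the 28 regulators were over 3-fold higher than in EHe, Foxa2, Rora, Thrb, Foxa3, Nr1h3 and Gata6, by between 3.64-fold for Gata6 and at least 5.31-fold for Foxa2. Nr5a2, a nuclear receptor that in ES cells also drives Pou5f1, was at least 134-fold lower. In EHeD14 Apoe, Apoc1, Apom and Apoa5 were well above background, and Apob, Apoa1, Apoa2 and Apoc3 were not.

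**Figure D4:**
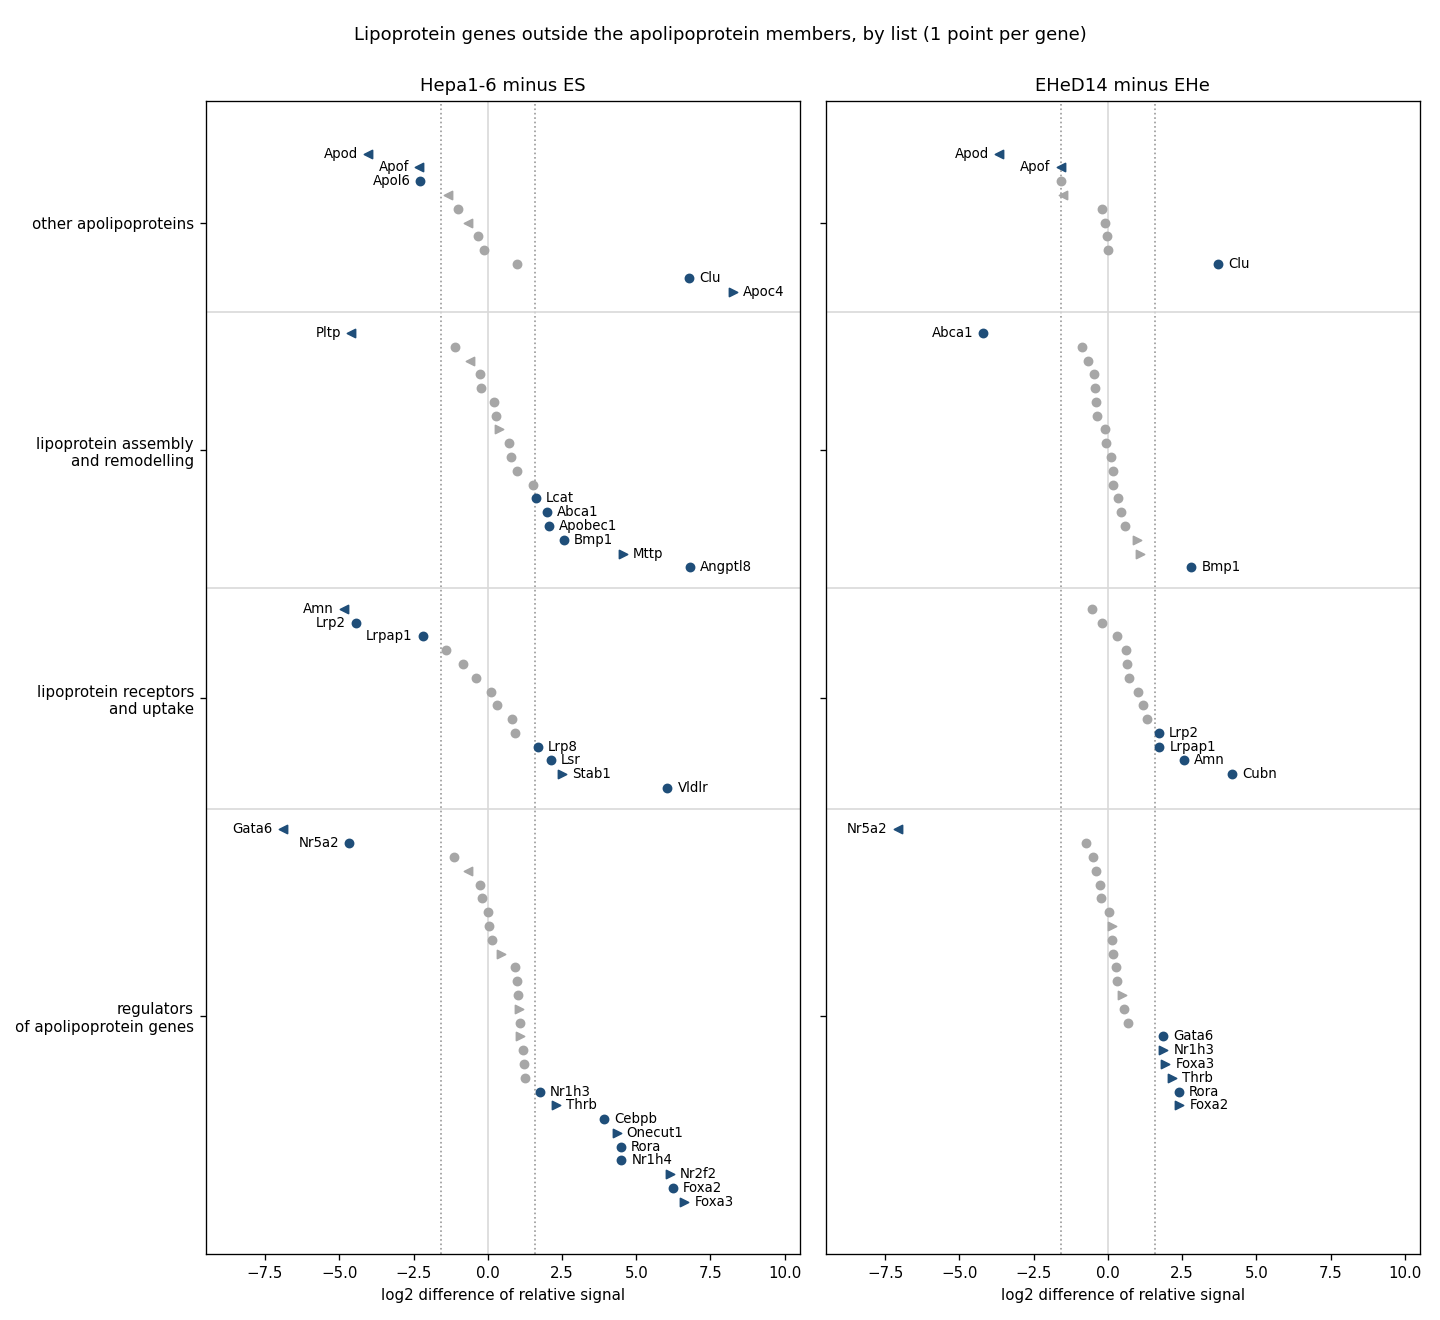
Log2 difference of relative signal for the measured genes of 4 fixed lists, Hepa1-6 minus ES at left and EHeD14 minus EHe at right, 1 point per gene, with triangles for bounds and dotted lines at 3-fold. Named genes lie past 3-fold. Apoc4, Angptl8 and Clu lie far right at left, and at right Cubn and Clu lie farthest right and Nr5a2 farthest left.

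The cell type labels were read against their markers. The hepatoma label had mixed marks: Alb, Afp and Fgb read 66.7, 109 and 26.0 in Hepa1-6 and were not well above background in EHe, EHeD7 or EHeD14, while Ttr and Fga were not well above background on any array and Ahsg, at 2.69 in ES, was under the limit in Hepa1-6. The summed relative signal of the 10 hepatocyte markers on the array was 14.2 to 24.8 in the other 4 arrays and 204 in Hepa1-6. Ass1, an enzyme of the urea cycle, made 13.8 to 21.7 of the sum in the other 4 arrays and was 10.6-fold lower in Hepa1-6 than in ES. All 8 pluripotency genes on the array were well above background in ES and in the 3 hybrid states, and 2 of them in Hepa1-6. In EHeD14, however, 4 of the 8 were over 3-fold lower than in EHe, Esrrb by 116-fold, Klf4 by 41.8-fold, Zfp42 by 17.0-fold and Sox2 by 4.48-fold, and none was over 3-fold higher. Of 7 measured fibroblast markers, 4 rose past 3-fold from EHe to EHeD14, and of 5 measured enterocyte markers none did. Pdgfrb, among those 4, lay 9.81-fold under ES in EHe, and Pdgfra, which did not pass 3-fold, at least 6.20-fold. Hepa1-6 stood past 3-fold above ES in 3 enterocyte markers, Vil1 (31.4-fold), Sis (8.90-fold) and Fabp2 (4.10-fold), and below it in Cdx2. For fibroblast markers 1 lay past 3-fold above ES in Hepa1-6 and 4 below. The higher one, Dcn, read 176 and was well above background there alone, so the filter set its direction. These are bulk samples, in which fewer cells of a kind and less RNA per cell cannot be told apart, and the part of such marker changes in the member values was not tested.

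By shape across the 5 arrays, the genes most like each member were found among those well above background on the same arrays, 10914 for members measured on all 5 and 42 for Apob. The measure is the root mean square difference between log2 profiles centred on their own mean, with the Pearson correlation given as a description over 5 points that share their arrays. Nearest to Apoe were Ccdc82 at 0.0833 (r = 0.998), Zfp236 at 0.0908 and Ust at 0.120. Nearest to Apoc1 were Cspg4 at 0.0863 (r = 0.992), Lrrc61 at 0.0913 and Nudt14 at 0.103. Nearest to Apom were Tfpi at 0.207 (r = 0.991), Mag at 0.211 and Slc25a20 at 0.266. For Apob the nearest was Agt, angiotensinogen, a secreted plasma protein made by liver, at 0.521 (r = 0.976), ahead of Mmp24 at 0.602 and Zfp503 at 0.611. In EHe and EHeD14 neither Apob nor these candidates were well above background, so for them the measure includes signals that have no more than an upper bound. Apoa5 had Mrps18a at 0.0352, Srebf1 at 0.0368 and Shc4 at 0.0404. None of the members was among the nearest genes of another member.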

How the data were processed

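Total RNA of 5 samples was hybridized to Agilent mouse arrays, 1 array per condition. By the labels the dye was Cy3 and differentiation was in monolayer. The methods of the paper instead name Cy5, and embryoid bodies for differentiation that is not tied to the arrays. The authors deposited 1 table per array from Agilent Feature Extraction 10.7.3.1, with 45018 spots each. The values used were the processed signal, an intensity already corrected for background by that software, and the median and local background intensity, with its 0 or 1 calls (deposited as other columns). Nothing had been normalized between arrays. A table of the whole series, also deposited, repeated those processed intensities with a largest difference of 0.

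Control spots and outlier spots (73 to 174 per array) were left out, and no spot was saturated. Signals were divided by each array's 75th percentile (1087 in ES to 1456 in Hepa1-6), put on the log2 scale and averaged over a probe's spots. A probe counted as well above background where at least 50% of its spots did, which held for 54.7% to 67.6% of 41174 probes. Of these, 26888 had 1 gene name through RefSeq records, and 14286 stayed unnamed. A gene was represented by its probe well above background on most arrays, with ties to the higher mean. Calls were made past 3-fold. In the lists, 3 genes are not reported here. No replicate SD or test exists. Members, gene lists and motifs were chosen with earlier results of these data known. Named genes were the members, the fixed lists and the 3 nearest profiles per member measured on at least 3 arrays. Alternatives were normexp (offset 50), quantile normalization, median centring, signals as measured, 2 other filters, the mean of a gene's probes, 2-fold and the series table. The calling of folds was tested on simulated 8-fold changes, only in probes far over the ES detection limit. That test says nothing on members near the limit. R 4.3.3 with limma 3.58.1, and Python 3.11.15 with pandas 2.3.3, numpy 2.4.6 and matplotlib 3.10.9, were used.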

Additional observations from a re-analysis of the deposited data

How the results depend on the processing

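Of 63 recomputed counts of members past 3-fold, 43 stayed within 1.5 times of the reported count and 20 moved. The series table repeats the same signals, so its counts could not move. Being within 1.5 times also covers the loss of Apoa2 with normexp. Of 271 recomputed values of single members, 202 stayed within the spot SD of the difference and 69 moved. No called difference changed sign, but bounds pointing the other way were dropped. Differences not called could change sign, as Apoa5 did between EHe and ES, from -0.47 to 0.20 for the mean of its probes. With the filter on all 5 arrays, Apoe alone was counted, 1 gene, as higher in Hepa1-6 than in ES and as lower in EHeD14 than in Hepa1-6, and 0 as lower in EHe than in Hepa1-6, since Apob and Apoa2 were no longer tested. Between EHe and ES 2 genes were past the threshold with signals as measured, with no filter (Apob and Apom) and at 2-fold (Apoe and Apom). For lower in EHe than in Hepa1-6 the count was 2 under quantile normalization, signals as measured and no filter (Apoa2 and Apob). It was 3 under median centring and 2-fold (Apoa2, Apob and Apoe). Between EHeD7 and EHe it was 1 under quantile normalization, median centring and 2-fold (Apom) and with signals as measured (Apob), and 2 with no filter (Apob and Apoc3). Between EHeD14 and EHe it was 1 under quantile normalization, median centring and 2-fold (Apom) and with no filter (Apoc3). The cause was not tested. The median of all genes for Hepa1-6 minus ES was -0.37 with normexp, -0.28 with quantile normalization and 0.29 with median centring. Low signal limits every statement on Apoa1, Apoa4, Apoc3 and Apoh. No paired analysis was possible because the labels give every group a single array, with no number shared between groups to pair by.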
